A study of Mus musculus with 6 samples.

Results

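The genes described here handle zinc, iron and copper in mouse renal tubular epithelial cells. They comprise the protein-coding genes of the Slc30, Slc39, Slc11, Slc31 and Slc40 transporter families together with Mt1, Mt2, Mt3, Tfrc, Fth1, Ftl1, Aco1, Ireb2, Atp7a, Atp7b, Cp and Hamp. By symbol, 41 of the 48526 listed genes met this definition: 14 Slc39 genes, 10 Slc30 genes, 3 metallothioneins, 9 iron genes and 5 copper genes. Of these, 36 had enough reads to be tested and 5 did not.

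RNA was sequenced from primary renal tubular epithelial cells of Setd2(F/F)Ksp-Cre+ mice (KO, 3 libraries) and of littermate Setd2(F/F) mice (WT, 3 libraries), all aged 4 to 5 weeks. Both groups carried floxed Setd2, the gene of the methyltransferase that trimethylates lysine 36 of histone H3, and Cre was driven by the promoter of the tubular Ksp-cadherin gene. Cells were grown from digested cortex with no stated step that selects tubule cells, in medium with insulin, transferrin, selenium, EGF (20 ng/ml) and hydrocortisone (100 nM), so the iron carrier transferrin and a glucocorticoid were given to both groups. Only KO cultures carried Cre, so Cre and deletion cannot be told apart.

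Cells take zinc into the cytosol through the Slc39 (ZIP) transporters and move it out of the cytosol, into vesicles or out of the cell, through the Slc30 (ZnT) transporters, while metallothioneins are small cysteine-rich proteins that bind zinc and copper. Iron bound to transferrin enters through the receptor encoded by Tfrc, crosses the endosomal membrane through the product of Slc11a2, is stored in ferritin made of heavy (Fth1) and light (Ftl1) chains, and leaves through ferroportin (Slc40a1). The iron regulatory proteins, encoded by Aco1 and Ireb2, bind hairpins called iron-responsive elements in some of these mRNAs when iron is scarce. Copper enters through Slc31a1 and is pumped by the ATPases Atp7a and Atp7b. The kidney tubule takes up filtered metal-protein complexes and expresses many of these transporters.

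Hairpins of this kind are shown because they are the form in which the iron regulatory proteins recognise an mRNA. A search of the annotated untranslated regions of GENCODE release M21 (GRCm38) for a C, 5 bases, CAGTG, any base and then 5 bases that pair with the first 5, wobble pairs allowed, found it in 4 of the 41 genes, and in 160 of 21866 protein-coding genes overall (0.732%). The matches are given 5′ to 3′ on the transcript's strand, each in 29 bases, with the first 5 loop bases in capitals. They lie at chr19:9982732-9982760 (plus strand, Fth1), chr7:45459779-45459807 (minus, Ftl1), chr1:45925465-45925493 (minus, Slc40a1) and, for 2 of the 4 matches in Tfrc, chr16:32631219-32631247 and chr16:32631710-32631738 (plus). The pattern asks for an upper stem without bulges, so it misses elements of other shape, such as the one known in the 3′ untranslated region of Slc11a2, and the absence of a match does not show that a transcript has no element. In Fth1, Ftl1 and Slc40a1 the hairpin is in the 5′ untranslated region, and in Tfrc in the 3′ untranslated region.
Fth1: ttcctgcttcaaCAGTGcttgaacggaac
Ftl1: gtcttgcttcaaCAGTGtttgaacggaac
Slc40a1: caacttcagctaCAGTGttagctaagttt
Tfrc, first match: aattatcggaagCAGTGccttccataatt
Tfrc, last match: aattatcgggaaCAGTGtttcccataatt

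Library totals lay between 86078636 and 106974842 counts, and the labels do not say which libraries came from separate animals, so the p-values reflect only how much these 6 libraries vary. Setd2 had 163, 154 and 158.5 CPM (counts scaled to library size with TMM factors) in KO, against 185, 168 and 152 CPM in WT (edgeR adjusted p = 0.481), but gene-level counts include every exon and do not check a deletion of some. Xist, transcribed from the inactive X, reached 507 and 606 CPM in KO replicates 2 and 3 and at or below 0.683 CPM in the other 4 libraries, so genotype and sex of the animals partly coincided. KO replicate 1 is the only KO library that shares this state with WT. A fit with a term for Xist, or without KO replicates 2 and 3, therefore sets KO replicate 1 alone against WT. Epithelial markers summed to between 7728 and 7769 CPM in KO and between 6676 and 7844 CPM in WT. Of the 10 proximal tubule markers, Slc34a1, Slc5a2, Slc5a12, Slc22a6 and Slc22a8 were too low to be tested, so these defining transcripts of the proximal tubule were at or near 0. The other 5 (Lrp2, Cubn, Aqp1, Gatm and Hnf4a) were tested, and 4 were higher in KO and none lower. The whole list summed to between 49.1 and 69.4 CPM in KO and between 28.1 and 43.1 CPM in WT. Some markers on the endothelial, podocyte and distal tubule lists were also higher in KO, and none was called lower. Of the endothelial ones 7 of 10 were higher (35.07 to 46.3 CPM in sum in KO, 23.4 to 25.2 in WT). Of podocyte markers 5 of 10 were higher (300.2 to 335 in KO, 231 to 241 in WT). Most of that sum was Podxl (127 to 153 CPM in KO, 77.5 to 80.6 in WT) and Kirrel, which was not called (121 to 127 in KO, 125 to 132 in WT). Of distal tubule and collecting duct markers 5 of 9 tested were higher (854 to 968 in KO, 732 to 771 in WT). Nearly all of this sum was Cdh16, also an epithelial marker (815 to 926 in KO, 709 to 748 in WT). Umod, Slc12a1, Calb1 and Aqp2 were not called. Of the erythroid list, 4 hemoglobin genes had no count. Fewer cells of a type and less RNA per cell cannot be told apart in such bulk samples.

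Of the 36 genes tested, 7 were higher and 6 lower in KO (36.1% called). The test was edgeR's quasi-likelihood test with Benjamini-Hochberg adjustment over all 17571 tested genes and a threshold of 0.05, by which 21.0% of all genes were called, 12.0% as higher and 9.08% as lower. Values of KO and WT did not overlap for 20 of the 36 genes (55.6%), 10 in each direction, beside 41.9% of all tested genes. The median log2 fold change of the 36 genes was -0.05, beside -0.01 over all tested genes, and the median absolute log2 fold change was 0.24 beside 0.21. The higher genes were Fth1, Slc11a1, Mt1, Mt3, Slc39a1, Slc39a2 and Slc39a13, and the lower ones were Ireb2, Slc30a5, Slc30a9, Slc39a4, Slc31a2 and Cp.

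**Figure D1:**
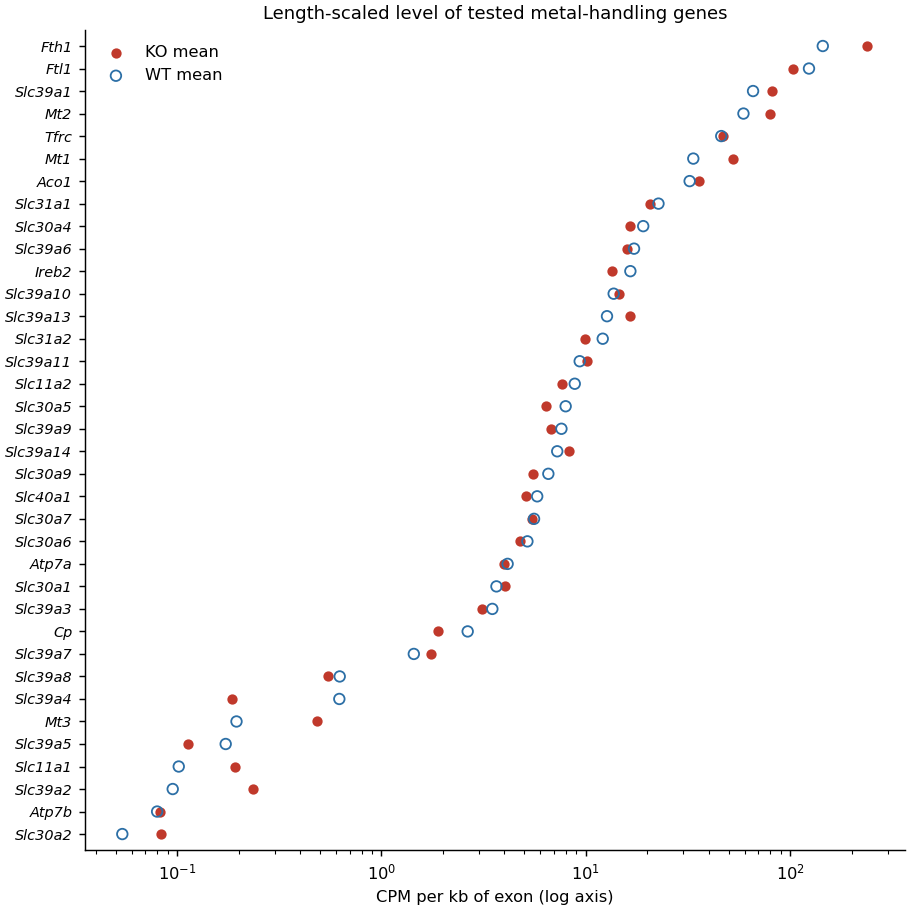
Mean level of each tested metal-handling gene in CPM per kb of exon (log axis), with filled points for KO and open points for WT. Fth1 is at the top with 239 in KO and 145 in WT, and the genes with the widest relative distance between points, such as Slc39a4, Mt3 and Slc39a2, lie at the low end.

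**Figure D2:**
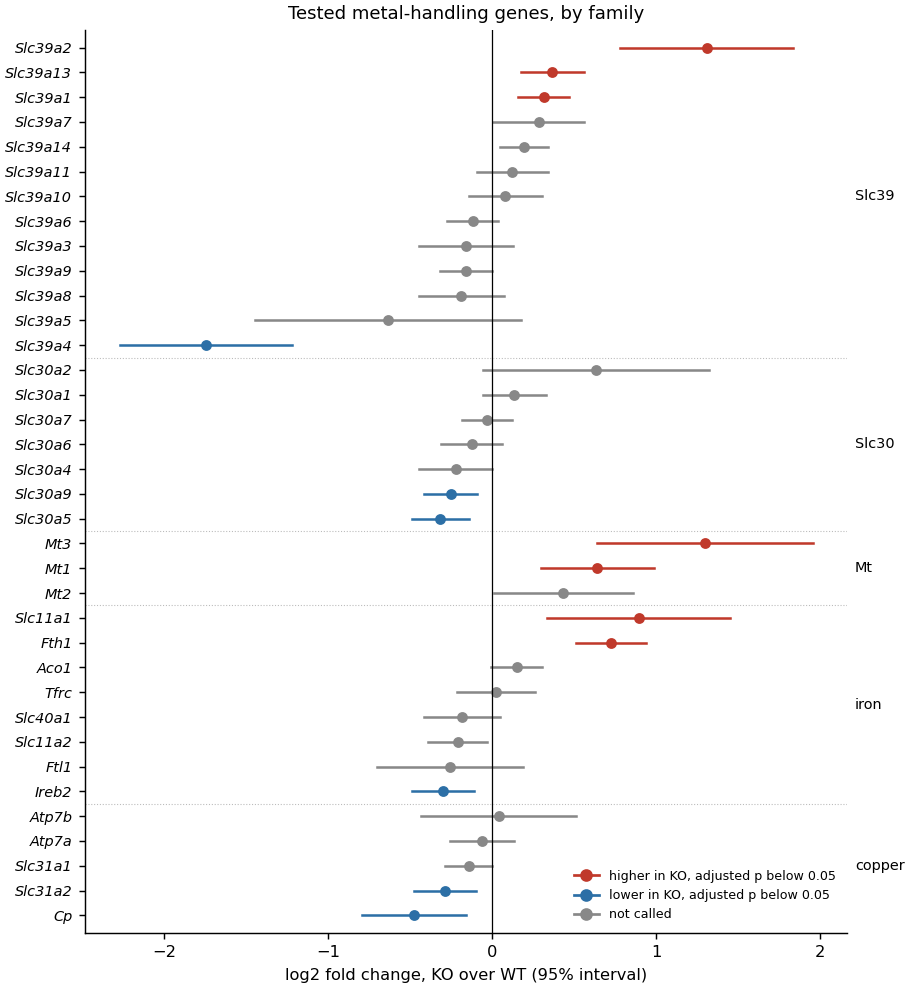
Log2 fold change of KO over WT for the 36 tested genes with its 95% interval, grouped into Slc39, Slc30, metallothionein, iron and copper genes. Red marks the 7 genes called higher in KO and blue the 6 called lower; Slc39a4 lies farthest left at -1.75 and Slc39a2 farthest right at 1.31.

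Scaled to exon length, levels of the tested genes spanned from 0.0822 CPM per kb (Atp7b) to 239 CPM per kb (Fth1) in KO. In WT they spanned from 0.05398 CPM per kb (Slc30a2) to 145 CPM per kb (Fth1). Fth1 and Ftl1, the ferritin chains, had the highest levels in both groups. In WT they were followed by Slc39a1 (65.9 CPM per kb), Mt2 (59.1), Tfrc (46.05), Mt1 (33.6), Aco1 (32.3), Slc31a1 (22.7), Slc30a4 (19.1) and Slc39a6 (17.2). In KO, Slc39a1 was at 81.9, Mt2 at 79.98, Mt1 at 52.5, Tfrc at 46.8, Aco1 at 35.8, Slc31a1 at 20.6, Slc30a4 at 16.4 and Slc39a6 at 15.9 CPM per kb. Exon length was the union over all annotated transcripts, which lowers the scaled level of genes with long unspliced isoforms.

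The mRNA of the ferritin heavy chain rose. Fth1, the subunit that oxidises iron for storage (ENSMUSG00000024661, chromosome 19, 9980598 to 9985098), had 953, 797 and 736 CPM in KO, against 519, 503 and 482 CPM in WT. Every KO library lay above every WT library, and WT libraries were close to each other. The means were 829 ± 112 CPM in KO and 502 ± 18.5 CPM in WT (SD, n = 3 each), a log2 fold change of 0.72 ± 0.10 (SE; edgeR adjusted p = 0.000666). The call held in each fit that left out 1 library. Without KO replicates 2 and 3, the libraries with Xist, the log2 fold change was 0.92. In that fit KO replicate 1, the highest library for Fth1, was the only KO library. Over all alternatives the adjusted p ran from 6.1e-16 to 0.122.

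The light chain was not called. Ftl1, the subunit that aids the forming of the mineral core (chromosome 7, 45457944 to 45459884), had 138, 155 and 122 CPM in KO, against 116, 144 and 238 CPM in WT. The groups overlapped, with WT replicate 3 above all other libraries and WT replicate 1 below them. The log2 fold change was -0.26 with a 95% interval from -0.70 to 0.19 and an edgeR adjusted p of 0.387. The length-scaled level of Fth1 over that of Ftl1 was 2.66, 1.98 and 2.32 in the KO libraries and 1.73, 1.35 and 0.783 in the WT libraries, so all 3 KO ratios were above the WT ratios. Ftl1 has related loci in the genome, of which Ftl1-ps1 and Ftl1-ps2 held 0.660 and 0.902 CPM on average, and how reads shared with such copies were counted is not given in the sources used here.

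Of the genes for iron entry and exit in epithelia, Tfrc, Slc11a2 and Slc40a1 were not called. Tfrc, the transferrin receptor whose 3′ untranslated region holds the hairpins shown above, had 307, 318 and 243 CPM in KO, against 319, 267 and 268 CPM in WT. The groups overlapped, and the log2 fold change of 0.02 had a 95% interval from -0.22 to 0.26. Slc11a2 (DMT1, the endosomal iron transporter) had 50.3, 49.2 and 46.1 CPM in KO and 53.3, 53.8 and 61.3 CPM in WT, with every KO value below every WT value and an edgeR adjusted p of 0.0883. Slc40a1 (ferroportin, the iron exporter) had 47.2, 50.4 and 40.1 CPM in KO and 57.3, 45.9 and 53.1 CPM in WT, which overlapped, with a log2 fold change of -0.18 (95% interval from -0.41 to 0.05). Hamp, the gene of the hormone hepcidin that removes ferroportin from the membrane, had at most 1 read in any library.

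The mRNAs of the iron regulatory proteins were not called together. Ireb2, which encodes IRP2 (ENSMUSG00000032293, chromosome 9, 54863789 to 54912530), fell to 127, 133 and 123 CPM in KO, against 177, 143 and 150 CPM in WT. The KO values lay close together and below all WT values, and WT replicate 1 stood above the other WT libraries. The log2 fold change was -0.30 ± 0.09 (SE; edgeR adjusted p = 0.0313). This call was lost without KO replicate 1, 2 or 3 and without WT replicate 1, with log2 fold changes of -0.28, -0.33, -0.27 and -0.19 and adjusted p-values of 0.130, 0.0599, 0.119 and 0.0515 in that order. Aco1, which encodes IRP1, a protein that is an aconitase when it holds an iron-sulfur cluster, had 164, 167 and 152 CPM in KO and 139, 145 and 151 CPM in WT. Its KO values were all above its WT values, with a log2 fold change of 0.15 (95% interval from -0.005 to 0.31) and an edgeR adjusted p of 0.1498.

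Slc11a1 (NRAMP1, a metal transporter of the phagosome of macrophages) rose at a low level. It had 0.794, 0.651 and 0.682 CPM in KO (70, 62 and 67 reads), against 0.255, 0.433 and 0.445 CPM in WT (22, 46 and 43 reads). All KO values were above all WT values, and the log2 fold change was 0.89 ± 0.25 (SE, edgeR adjusted p = 0.0290). The call was lost without KO replicate 1, 2 or 3 (adjusted p of 0.101, 0.0512 and 0.0690, with log2 fold changes of 0.82, 0.95 and 0.92) and without WT replicate 1 or 2 (adjusted p of 0.0665 and 0.0515, with log2 fold changes of 0.70 and 1.00). Of 12 macrophage and leukocyte markers, 6 were higher, beside 12.0% of all tested genes, and none was lower (by edgeR and at this threshold). Cd14 had a log2 fold change of -0.50 and Tyrobp of 0.02, and neither was called. The sum of the 12 ran from 52.6 to 61.4 CPM in KO and from 40.4 to 47.8 CPM in WT, with none at 0. Its largest part was Lyz2, which was called higher (22.3 to 28.5 CPM in KO, 14.5 to 18.1 in WT). The part of such cells in the result was not tested.

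**Figure D3:**
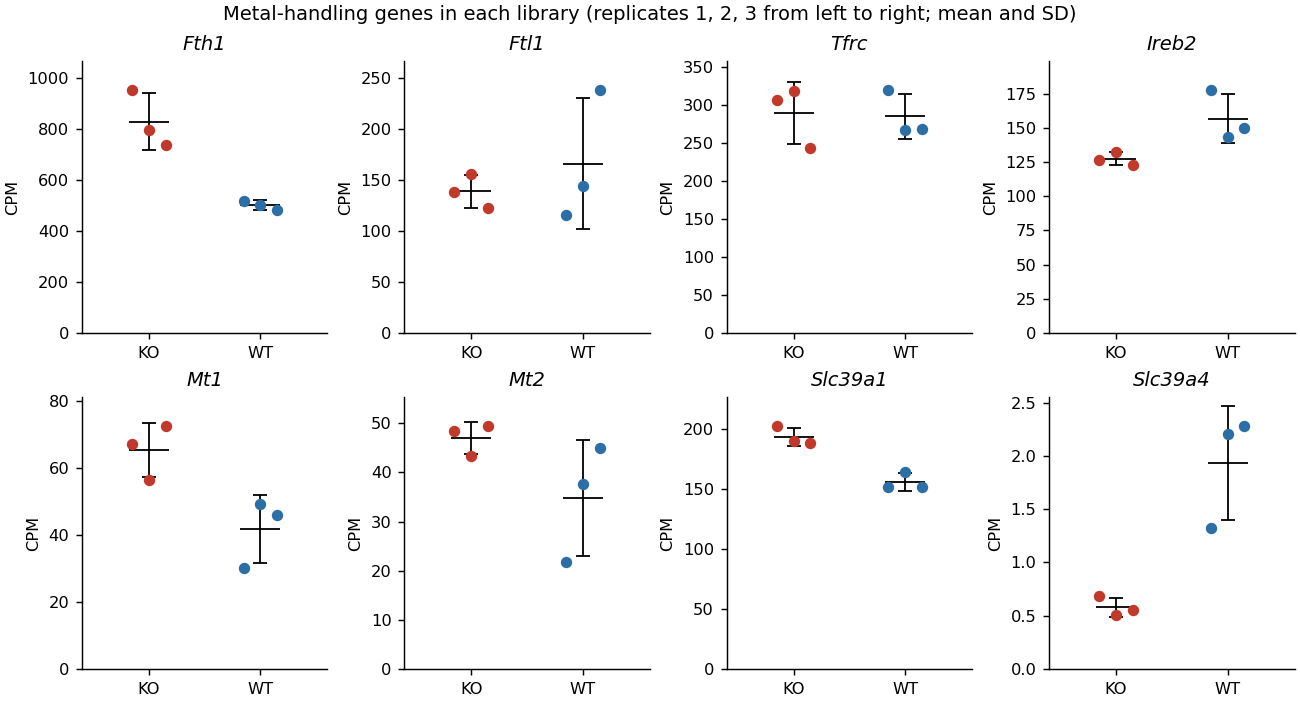
CPM of 8 metal-handling genes in each library, KO at left and WT at right in each panel, with points for replicates 1 to 3 and bars for mean and SD; each axis starts at 0. The KO points of Fth1, Mt1 and Slc39a1 lie above the WT points, those of Ireb2 and Slc39a4 lie below, and those of Ftl1, Tfrc and Mt2 overlap them.

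Metallothioneins were higher in KO for 2 of 3 genes. Mt1 (ENSMUSG00000031765, chromosome 8, 94179082 to 94180327) had 67.2, 56.5 and 72.5 CPM in KO, against 30.3, 49.3 and 46.04 CPM in WT. The KO values were all above the WT values, among which replicate 1 was low, and the log2 fold change was 0.64 ± 0.16 (SE, edgeR adjusted p = 0.0153). The call was lost without KO replicate 1 (log2 fold change 0.64, adjusted p = 0.0565) and without KO replicate 3 (0.56, adjusted p = 0.0674). Mt2, its neighbour on the same chromosome (94172664 to 94173568), had 48.4, 43.3 and 49.4 CPM in KO and 21.8, 37.6 and 44.9 CPM in WT. Of the 588 exon bases of Mt2, 432 overlap Gm45774 on the other strand, and the strand setting of the counting is not given. The groups overlapped in WT replicate 3, and WT replicate 1 was the lowest library, as for Mt1. Its log2 fold change of 0.43 (95% interval from 0.009 to 0.86) had an edgeR adjusted p of 0.131, which became 0.0243 (log2 fold change 0.66) without WT replicate 3. Mt1 and Mt2 together held 116, 99.8 and 122 CPM in KO and 52.1, 86.9 and 90.9 CPM in WT. Mt3, known as the brain metallothionein, had 0.442, 0.672 and 0.438 CPM in KO (39, 64 and 43 reads), against 0.151, 0.226 and 0.249 CPM in WT (13, 24 and 24 reads). Each KO value was above each WT value, and the log2 fold change was 1.30 ± 0.30 (SE, edgeR adjusted p = 0.0119).

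The bases before the annotated starts of Mt1 and Mt2 are shown because both genes are known targets of MTF1, the zinc-sensing transcription factor that binds metal response elements. The cores TGCACNC and TGCGCNC were searched on both strands in the 250 bases before each start in the RefSeq table (GRCm38.p6), which held 35 of the 41 genes, and overlapping matches were counted separately. The 35 genes had 43 windows, of which 17 held at least 1 core (39.5%), against 21.4% of all 32851 windows, and 6 held at least 2 (14.0%), against 5.17%. Matches are descriptions of letters and not of binding. The Mt1 window held 1 core, the Mt2 window 3, of which 2 lie in the printed bases, and the Mt3 window none. Bases after these starts were not searched, so elements near a start further downstream are missed, and the printed bases need not hold the whole promoter. The sequences below, on the plus strand, run from 200 bases before the RefSeq start to the base before the annotated gene or start, at chr8:94178889-94179081 for Mt1 and chr8:94172418-94172617 for Mt2, with the cores in capitals.
Mt1: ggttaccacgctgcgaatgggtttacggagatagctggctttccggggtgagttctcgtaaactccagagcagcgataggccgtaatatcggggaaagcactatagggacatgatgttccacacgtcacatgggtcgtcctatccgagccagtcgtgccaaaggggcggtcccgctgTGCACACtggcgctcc
Mt2: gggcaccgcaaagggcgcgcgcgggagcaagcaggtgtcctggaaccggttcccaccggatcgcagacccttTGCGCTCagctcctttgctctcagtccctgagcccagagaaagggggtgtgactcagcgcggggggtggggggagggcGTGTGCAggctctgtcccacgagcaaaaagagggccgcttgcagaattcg

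Mtf1 itself, named for its role after its values were seen, had 39.4, 37.7 and 39.2 CPM in KO and 40.4, 40.7 and 39.5 CPM in WT, with a log2 fold change of -0.05 (edgeR adjusted p = 0.628). Slc30a1 (ZnT1, the zinc exporter of the plasma membrane and another known MTF1 target) had 21.8, 20.5 and 20.9 CPM in KO and 20.7, 18.3 and 18.5 CPM in WT. Its groups overlapped, and the log2 fold change was 0.14 with a 95% interval from -0.05 to 0.33.

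Zinc importers changed in both directions, with 3 of 13 tested Slc39 genes higher and 1 lower. The lower one, Slc39a4 (ZIP4; ENSMUSG00000063354, chromosome 15, 76612383 to 76617384), is known as the intestinal zinc importer that is mutated in acrodermatitis enteropathica in humans. It had 0.680, 0.504 and 0.550 CPM in KO (60, 48 and 54 reads), against 1.32, 2.20 and 2.28 CPM in WT (114, 234 and 220 reads). Every KO value was under every WT value, and WT replicate 1 was lower than the other WT libraries. The log2 fold change was -1.75 ± 0.24 (SE), so WT was 3.36-fold above KO, with an edgeR adjusted p of 0.000725. The call held in all 17 alternatives, in which the log2 fold change ran from -1.94 to -1.51 and the adjusted p reached at most 0.0399.

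Slc39a2 (ZIP2, a zinc importer of the plasma membrane) moved the other way at a similarly low level. It had 0.680, 0.945 and 0.805 CPM in KO (60, 90 and 79 reads), against 0.359, 0.264 and 0.362 CPM in WT (31, 28 and 35 reads). The groups did not overlap, and the log2 fold change was 1.31 ± 0.24 (SE, edgeR adjusted p = 0.00389). Of its 3447 exon bases, 151 are shared with Mettl17 on the same strand, which had 9.53 CPM in KO and 11.9 CPM in WT on average. Slc39a5, known from the basolateral membrane of intestine and pancreas, overlapped between groups with 0.317, 0.210 and 0.224 CPM in KO and 0.185, 0.452 and 0.518 CPM in WT, and was called without WT replicate 1 (log2 fold change -0.94, adjusted p = 0.0499).

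Abundant importers changed less. Slc39a1 (ZIP1, the most abundant of the family by length-scaled level) had 202, 190 and 189 CPM in KO, against 151, 164 and 152 CPM in WT, with no overlap. Its log2 fold change was 0.31 ± 0.07 (SE, edgeR adjusted p = 0.0104), and without KO replicate 1 it was 0.30 with an adjusted p of 0.0535. Slc39a13 (ZIP13, a transporter of the secretory pathway) had 80.2, 76.2 and 82.9 CPM in KO, against 54.2, 64.6 and 66.9 CPM in WT, again with no overlap. The log2 fold change was 0.37 ± 0.09 (SE, edgeR adjusted p = 0.0142). This call was lost without KO replicate 1 (0.38, adjusted p = 0.0544) and without KO replicate 3 (0.34, adjusted p = 0.0678), and 215 bases of its exons overlap Psmc3 on the other strand.

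Among importers that did not pass the test, Slc39a14 (ZIP14, a carrier of zinc, iron and manganese) had 85.3, 90.4 and 86.7 CPM in KO and 76.5, 74.4 and 78.7 CPM in WT. The groups did not overlap, and the log2 fold change was 0.19 (95% interval from 0.05 to 0.34) with an edgeR adjusted p of 0.0624, which was 0.0395 without WT replicate 1 (log2 fold change 0.20). Slc39a8 (ZIP8, its closest relative) had 4.003, 4.085 and 4.52 CPM in KO and 4.84, 4.46 and 5.07 CPM in WT, with overlap between KO replicate 3 and WT replicate 2. Slc39a10 was at 88.3 ± 4.99 CPM in KO and 83.5 ± 12.8 CPM in WT (SD, n = 3 each), and passed the test only without WT replicate 1 among the fits that left out 1 library (log2 fold change 0.22, adjusted p = 0.0431). Slc39a6, the relative of Slc39a10, was at 64.6 ± 2.82 CPM in KO and 70.2 ± 2.84 CPM in WT (SD, n = 3 each). Slc39a3, Slc39a9 and Slc39a11 had log2 fold changes of -0.16, -0.16 and 0.12 with edgeR adjusted p-values of 0.407, 0.130 and 0.403. Slc39a7, the zinc channel of the endoplasmic reticulum, was at 4.53 ± 0.159 CPM in KO and 3.72 ± 0.427 CPM in WT (SD, n = 3 each). Its level is uncertain, because 2084 of its 2584 exon bases are shared with the annotated gene Gm20427, which had no read. Slc39a12 had at most 7 reads in a library and was not tested.

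Among the zinc exporters, 2 of 7 tested Slc30 genes were lower in KO. Slc30a5 (ZnT5, which loads zinc into the early secretory pathway; chromosome 13, 100802648 to 100833427) had 47.4, 48.9 and 43.9 CPM in KO, against 61.7, 55.6 and 57.3 CPM in WT. The groups did not overlap, and the log2 fold change was -0.32 ± 0.08 (SE, edgeR adjusted p = 0.0169). The call was lost without KO replicate 1 (-0.31, adjusted p = 0.0732) and without KO replicate 3 (-0.27, adjusted p = 0.0827). Slc30a9 (known from mitochondrial zinc export) had 68.3, 69.9 and 66.2 CPM in KO, against 87.7, 77.2 and 78.7 CPM in WT. Its groups did not overlap either, and the log2 fold change was -0.25 ± 0.07 (SE, edgeR adjusted p = 0.0331). Without KO replicate 1, 2 or 3 the adjusted p was 0.136, 0.0760 or 0.133, with log2 fold changes of -0.24, -0.27 and -0.23.

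The partner of ZnT5 in its heterodimer, Slc30a6, had 15.1, 14.2 and 14.5 CPM in KO and 15.3, 16.004 and 16.5 CPM in WT. Every KO value was below every WT value, with a log2 fold change of -0.13 and an edgeR adjusted p of 0.311. Slc30a4 (ZnT4, a vesicular exporter) had 91.8, 95.2 and 82.5 CPM in KO and 122.9, 95.72 and 95.72 CPM in WT, where replicate 1 stood above the others. KO replicate 2 lay just under the lowest WT value, and the adjusted p was 0.141. Slc30a7 (ZnT7, of the Golgi) was at 60.7 ± 1.43 CPM in KO and 62.1 ± 2.09 CPM in WT (SD, n = 3 each), with a 95% interval of the log2 fold change from -0.19 to 0.12. Slc30a2 was at 0.296 ± 0.081 CPM in KO and 0.192 ± 0.034 CPM in WT (SD, n = 3 each; edgeR adjusted p = 0.171). No Slc30 gene was called higher by edgeR, DESeq2 or limma-voom, and 0 had an unadjusted edgeR p under 0.05 in that direction. Of all tested genes, edgeR called 12.0% higher, so 0 of 7 Slc30 genes does not set the family apart. Slc30a3, the exporter of synaptic vesicles, had 6, 8 and 13 reads in KO and 1, 3 and 2 reads in WT and was not tested. Slc30a10 had no read in KO and 2 reads in WT in total, and Slc30a8, the exporter of insulin granules, had no read in any library.

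Copper genes included 2 of 5 that were lower in KO. Slc31a2 (CTR2, of endosomes and lysosomes; ENSMUSG00000066152, chromosome 4, 62262562 to 62298411) had 19.05, 20.8 and 20.6 CPM in KO, against 24.1, 23.4 and 26.4 CPM in WT. The groups did not overlap, and the log2 fold change was -0.29 ± 0.09 (SE, edgeR adjusted p = 0.0357). It was lost without KO replicate 1, 2 or 3 (adjusted p of 0.175, 0.0686 and 0.0852, log2 fold changes of -0.23, -0.31 and -0.31) and without WT replicate 2 or 3 (0.0647 and 0.0854, log2 fold changes of -0.32 and -0.24). Cp (ceruloplasmin, a copper ferroxidase that aids iron export) had 17.6, 15.2 and 21.7 CPM in KO, against 29.9, 21.1 and 24.9 CPM in WT. KO replicate 3 lay above WT replicate 2, so the groups overlapped. The log2 fold change was -0.48 ± 0.15 (SE, edgeR adjusted p = 0.03825). Without KO replicate 1 or 2 the log2 fold change of Cp was -0.44 or -0.36 (adjusted p of 0.140 and 0.123), and without WT replicate 1 or 3 it was -0.33 or -0.49 (0.105 and 0.0594).

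Slc31a1 (CTR1, the copper importer of the plasma membrane) had 87.3, 90.3 and 86.3 CPM in KO and 100.4, 96.7 and 94.4 CPM in WT. Its KO values were all below its WT values, with a log2 fold change of -0.14 (95% interval from -0.29 to 0.002) and an edgeR adjusted p of 0.143. The copper pump Atp7a, which is X-linked, had 33.04, 36.1 and 34.9 CPM in KO and 40.3, 34.8 and 33.5 CPM in WT, with overlap and a 95% interval from -0.26 to 0.13. Atp7b, the pump that is defective in Wilson disease in humans, was at 0.535 ± 0.057 CPM in KO and 0.520 ± 0.030 CPM in WT (SD, n = 3 each), with an interval from -0.43 to 0.51. By edgeR, DESeq2 and limma-voom alike, 0 copper genes were called higher, and 0 had an unadjusted edgeR p under 0.05 in that direction. With 5 genes tested and 12.0% of all tested genes called higher by edgeR, this does not set the copper genes apart.

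Other genes of the same pathways, listed by function outside the definition above, numbered 75, of which 65 were tested. In edgeR's test, 16 were higher and 6 lower (33.8% called, beside 21.0% of all tested genes), with a median log2 fold change of -0.01. By list, 9 of 32 iron and heme genes were higher and 4 lower, 3 of 19 copper genes were higher and 2 lower, and 4 of 14 zinc and manganese genes were higher and none lower. DESeq2 called 5 and 0 of the zinc and manganese genes, limma-voom 4 and 0, and 1 had an unadjusted edgeR p under 0.05 in the lower direction. Of all tested genes, edgeR called 9.08% lower, so 0 lower of 14 does not set this list apart.

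The iron list also held genes of heme transport and turnover, some called and some not. Slc48a1 (HRG1, which moves heme from lysosomes to the cytosol) had 134, 114 and 117 CPM in KO, against 69.9, 79.3 and 83.4 CPM in WT, with no overlap. Its log2 fold change was 0.65 ± 0.09 (SE, edgeR adjusted p = 0.000675), and the call held in each fit that left out 1 library. Hmox1 (heme oxygenase, which opens the heme ring and frees its iron) had 113, 92.8 and 81.7 CPM in KO, against 60.2, 66.4 and 77.02 CPM in WT, again with no overlap. The log2 fold change was 0.50 ± 0.12 (SE, edgeR adjusted p = 0.0146), and 0.38 with an adjusted p of 0.0689 without KO replicate 1. Blvrb (biliverdin reductase B) had 6.24, 3.82 and 4.56 CPM in KO, against 1.24, 1.97 and 2.06 CPM in WT. Its log2 fold change was 1.47 ± 0.22 (SE, edgeR adjusted p = 0.00121) and kept its call in all 17 alternatives. The heme carriers Flvcr2 and Slc46a1 had log2 fold changes of 0.86 and 0.57 (edgeR adjusted p of 0.00442 and 0.00760). The call of Slc46a1 was lost with a term for the libraries with Xist (adjusted p = 0.0763) and without those libraries (0.117), and that of Flvcr2 without them (0.0595). Blvra, the main reductase of biliverdin in adults, fell to 31.2, 33.5 and 29.1 CPM in KO, against 40.6, 36.97 and 41.3 CPM in WT (log2 fold change -0.34, edgeR adjusted p = 0.0174), and was not called without KO replicate 1 (adjusted p = 0.0812) or KO replicate 3 (0.0784). Hmox2, the constitutive oxygenase, had a log2 fold change of -0.01 (edgeR adjusted p = 0.915). The other heme genes of the list were not called either: Alas1 and Fech, the first and last enzymes of heme synthesis, had log2 fold changes of 0.21 and 0.08, the heme exporter Flvcr1 0.04 and the heme-binding Pgrmc1 -0.20 (edgeR adjusted p of 0.0733, 0.449, 0.780 and 0.0741).

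Among iron reductases, Cybrd1 and Steap3 were higher, while Steap2 had a log2 fold change of -0.18 and was not called (edgeR adjusted p = 0.173). Cybrd1, a ferric reductase, had 1.53, 1.55 and 1.67 CPM in KO, against 0.706, 0.574 and 0.621 CPM in WT, with no overlap, a log2 fold change of 1.32 ± 0.18 (SE, edgeR adjusted p = 0.000666) and a call in all 17 alternatives. Steap3, the endosomal ferrireductase of the transferrin cycle, had a log2 fold change of 0.51 (edgeR adjusted p = 0.01055, and 0.0527 with 0.45 without KO replicate 3). Heph (hephaestin, a ferroxidase related to ceruloplasmin) fell to 9.24, 10.8 and 9.22 CPM in KO, against 13.1, 13.7 and 12.8 CPM in WT (log2 fold change -0.44, edgeR adjusted p = 0.0112). It was not called without KO replicate 1 (adjusted p = 0.0715) or KO replicate 3 (0.0542). Bmp6, a ligand that induces hepcidin in the liver, had a log2 fold change of 0.62 (edgeR adjusted p = 0.0246), with adjusted p-values of 0.101, 0.0505 and 0.0798 without KO replicate 1, KO replicate 3 and WT replicate 2.

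Lcn2 (lipocalin-2, a binder of iron siderophores and a marker of tubular injury) had 355, 482 and 605 CPM in KO, against 591, 766 and 908 CPM in WT. KO replicate 3 lay above WT replicate 1, so the groups overlapped, and the log2 fold change was -0.65 (edgeR adjusted p = 0.0267). The adjusted p of Lcn2 was 0.114, 0.0629, 0.0684 and 0.0706 without KO replicate 1, KO replicate 2, WT replicate 2 and WT replicate 3. Its log2 fold change was -0.46 without KO replicate 1. DESeq2 did not call it either (log2 fold change -0.64, adjusted p = 0.0771), and over all alternatives its adjusted p ran from 3.27e-14 to 0.744. Slc22a17, the lipocalin-2 receptor, was at 0.295, 0.294 and 0.336 CPM in KO, against 0.486, 0.555 and 0.673 CPM in WT (log2 fold change -0.89, edgeR adjusted p = 0.0244). That call was lost without any one of KO replicates 1, 2 and 3 and WT replicates 2 and 3, with adjusted p-values from 0.0557 to 0.0877. Lrp2 (megalin, an endocytic receptor of the proximal tubule) had 14.9, 17.9 and 19.2 CPM in KO, against 13.5, 7.10 and 9.50 CPM in WT (log2 fold change 0.79, edgeR adjusted p = 0.0144, and 0.0609 without KO replicate 3). Cubn (cubilin, the partner receptor of megalin) had 7.23, 6.93 and 7.31 CPM in KO and 8.73, 7.67 and 8.46 CPM in WT, with every KO value below every WT value and a log2 fold change of -0.21 (edgeR adjusted p = 0.156). Scara5, a ferritin receptor, had at most 7 reads in a library and was not tested. Lrp2 and Cubn are also among the 10 proximal tubule markers, of which 4 of 5 tested were higher, with sums from 49.1 to 69.4 CPM in KO and from 28.1 to 43.1 CPM in WT. The part of such cells in the result was not tested.

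Of the wider copper list, Sod3 (the extracellular superoxide dismutase, a copper and zinc enzyme) had 0.612, 0.504 and 0.978 CPM in KO, against 0.220, 0.122 and 0.104 CPM in WT. Its log2 fold change was 2.25 ± 0.36 (SE, edgeR adjusted p = 0.00187) and was called in each of the 16 alternatives that tested it. Sod1, the cytosolic enzyme, fell to 98.1, 93.7 and 99.1 CPM in KO, against 112, 118 and 128 CPM in WT (log2 fold change -0.30, edgeR adjusted p = 0.0149), with no overlap. Without KO replicates 1, 2 and 3 in turn, the adjusted p of Sod1 was 0.0778, 0.0690 and 0.0515. The copper-dependent collagen crosslinkers Loxl2 and Loxl4 had log2 fold changes of 0.53 and 0.42 (edgeR adjusted p of 0.0237 and 0.0228), and the Loxl4 value of KO replicate 3 lay below that of WT replicate 1. Loxl2 was not called without KO replicate 3 or WT replicate 2 (adjusted p of 0.0819 and 0.0766), and Loxl4 not without KO replicate 1, KO replicate 2, WT replicate 2 or WT replicate 3 (0.102, 0.0766, 0.0736 and 0.0506). Without KO replicate 3 the log2 fold change of Loxl2 was 0.32. Of 8 tested fibroblast and pericyte markers, 5 were higher, beside 12.0% of all tested genes. The list summed to between 70.02 and 127 CPM in KO and between 65.4 and 89.5 CPM in WT. The largest part of that sum was Acta2, which was not called (37.0 to 73.0 CPM in KO, 43.3 to 62.0 in WT). The part of such cells in the result was not tested. Fdx1, a mitochondrial ferredoxin that copper ionophores target, had a log2 fold change of -0.41 (edgeR adjusted p = 0.0173, with 0.0817 and 0.0770 without KO replicates 1 and 3). Atox1, the chaperone that hands copper to the pumps, had 34.4, 40.9 and 36.2 CPM in KO and 28.95, 36.97 and 52.4 CPM in WT, where replicate 3 was the highest library, as for Ftl1.

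Of the wider zinc list, Gpr39 (a zinc-sensing receptor of epithelia) had 37.3, 32.6 and 28.9 CPM in KO, against 23.7, 22.5 and 23.5 CPM in WT, with no overlap, a log2 fold change of 0.50 ± 0.10 (SE, edgeR adjusted p = 0.00541) and a call in each fit that left out 1 library. S100a8 (a zinc- and calcium-binding protein of neutrophils), Alpl (alkaline phosphatase, a zinc enzyme) and Tmc8 were also higher, at means of 0.441, 0.241 and 1.08 CPM in KO and 0.137, 0.0785 and 0.537 CPM in WT. These rested on few reads, 4 to 25 per library for Alpl. Alpl was no longer called in the fit with a term for Xist (adjusted p = 0.106) or without the libraries with Xist (0.195). The call of Tmc8 was lost without KO replicate 1, KO replicate 3 or WT replicate 2 (adjusted p of 0.0611, 0.0769 and 0.0601). Of the leukocyte markers given beside Slc11a1, 6 of 12 were higher as well, and the part of such cells in S100a8 was not tested. Among abundant genes of the 3 lists that were not called, Pcbp1 (a cytosolic iron chaperone) was at 212 ± 5.92 CPM in KO and 202 ± 18.5 CPM in WT, and Tmem165 at 83.1 ± 3.24 CPM in KO and 94.7 ± 5.61 CPM in WT (SD, n = 3 each).

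**Figure D4:**
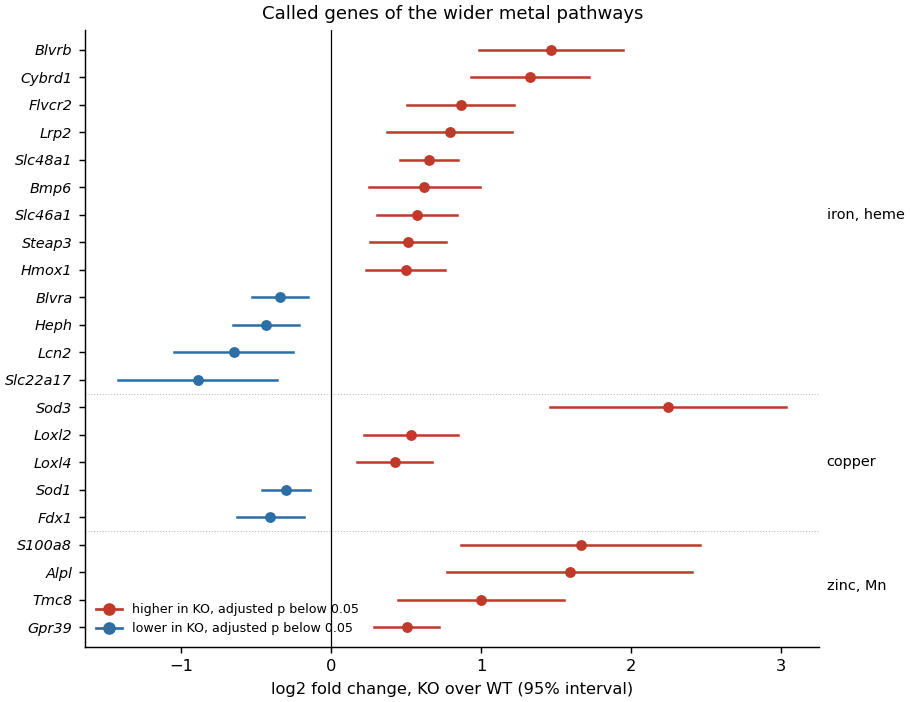
Log2 fold change of KO over WT with its 95% interval for the 22 called genes of the wider iron, copper and zinc lists, red for higher and blue for lower in KO. The heme genes Blvrb, Slc48a1 and Hmox1 are on the right of 0, Blvra and Lcn2 on the left, and Sod3 lies farthest right at 2.25.

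Several calls among the 41 genes depended on 1 library. Without KO replicate 1 there were 3 higher and 1 lower, without KO replicate 2 there were 6 and 2, and without KO replicate 3 there were 4 and 2. Without any one WT library there were between 6 and 8 higher and 4 or 5 lower. Calls over all tested genes fell too, from 21.0% to 9.36%, 15% and 10.8% without KO replicates 1, 2 and 3. Without WT replicates 1, 2 and 3 that share was 20.9%, 14.3% and 19.1%. All 13 called genes kept the sign of their log2 fold change in each alternative in which they were tested. Slc39a4 kept its call in all of them, and Fth1, Slc39a2, Slc39a4 and Mt3 in each fit that left out 1 library. With a term for the libraries with Xist, of the 41 genes only Fth1 and Slc39a4 were called (log2 fold changes of 0.93 and -1.51, adjusted p of 0.00118 and 0.0341). Without those libraries their log2 fold changes were 0.92 and -1.51. KO replicate 1 was then the only KO library, so that fit holds no spread among KO libraries. The fit with the term also sets KO replicate 1 alone against WT, because both libraries with Xist were KO. The 2 fits are therefore not separate checks. Of the 22 called pathway genes, 11 were called with the term and 9 without those libraries: Blvrb, Cybrd1, Slc48a1, Hmox1, Lcn2, Sod3, Loxl4, Gpr39 and S100a8, joined with the term by Flvcr2 and Bmp6. With upper-quartile factors Ireb2, Slc30a9, Slc31a2 and Cp were not called (adjusted p of 0.0507, 0.0558, 0.0519 and 0.0535), and among genes with a mean of at least 1 CPM neither were Ireb2, Slc31a2 and Cp (0.0507, 0.0528 and 0.0652). In the fit with the Xist term 6.62% of all tested genes were called, and without those libraries 4.88%.

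**Figure D5:**
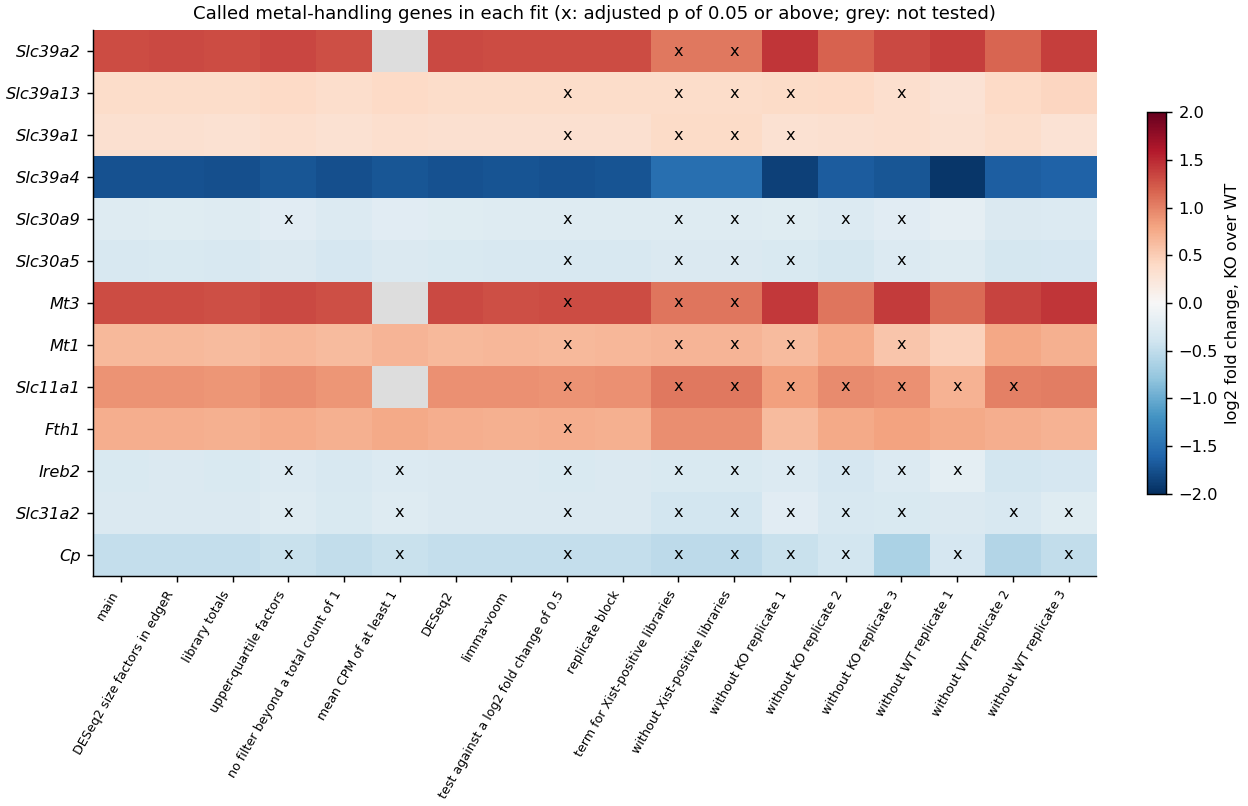
Log2 fold change of the 13 called genes (rows) in the reported fit and 17 alternatives (columns), red for higher and blue for lower in KO; x marks an adjusted p of 0.05 or above and grey a gene not tested. Colours keep their side in every column, and Slc39a4 has no x.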

How the data were processed

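RNA was counted in 3 KO and 3 WT libraries, grouped and numbered by their titles. The authors deposited whole-number counts per Ensembl gene, unnormalized, 1 table per library. Per the submitters' processing notes, the tools were Trimmomatic 0.38, STAR 2.7.1a and HTSeq 0.11.2, on mm10. The sources used here give neither the annotation release, nor the strand setting, nor how multi-mapped reads were treated. This matters for copies and overlapping genes: exons of 10 of the 41 genes overlap another gene on the opposite strand, and those of 3 (Ftl1, Slc39a2 and Slc39a7) one on the same strand.

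Symbols, positions and exon lengths came from GENCODE M21 (48144 of 48526 IDs matched). Counts were filtered with filterByExpr, scaled with TMM factors and tested with edgeR 4.0.16 in R 4.3.3, genotype being the only term. The SE was derived from the log2 fold change and its F statistic, and 95% intervals use the test's degrees of freedom. At 86078636 to 106974842 counts per library, counting limits mainly genes under about 1 CPM. Chi-square per degree of freedom between replicates was at least 22.7, so none was a copy.

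Alternatives were other scalings and filters, DESeq2 1.42.0, limma-voom 3.58.1, testing for changes beyond 0.5 on the log2 scale, the replicate number as a block, a term for or removal of libraries with Xist above 10 CPM, and leaving out each library. The genes, the 3 pathway lists, the marker lists and the naming rule (called genes and those of main roles with all values, the rest by range) were chosen with earlier results of these data known. Figures used matplotlib 3.10.9.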

Additional observations from a re-analysis of the deposited data

How the results depend on the processing

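The main counts were 7 genes higher and 6 lower in KO among the 41, and 16 higher and 6 lower among the wider pathway genes. DESeq2's factors, library totals, DESeq2 and limma-voom left each of these 4 counts within 1.5 times its main value, though Lcn2 was not called by DESeq2. Genes lower among the 41 numbered 2 with upper-quartile factors and 3 at a mean CPM of at least 1. Lower pathway genes numbered 10 with no filter beyond a total count of 1. Of all tested genes, upper-quartile factors called 20.5%, the mean CPM filter 23.1% and the fit with no further filter 16%. Against a log2 fold change of 0.5, 2.77% of all tested genes were called. The counts there among the 41 were 1 higher and 1 lower, and among pathway genes 3 higher and 0 lower. With the Xist term they were 1 and 1, and 10 and 1; without the libraries with Xist, 1 and 1, and 8 and 1. Leaving out 1 library at a time gave 3 to 8 higher and 1 to 5 lower among the 41, and 11 to 16 higher and 0 to 9 lower among pathway genes. The lowest of the first 2 ranges and the 0 came without KO replicate 1. Among the fits that left out 1 library, that fit also called the smallest share of all tested genes (9.36%).

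With the replicate block the counts were 8 and 6 among the 41, and 17 and 7 among pathway genes, and Mt2 was then called. Deviations of libraries with the same number correlated at 0.04, -0.15 and 0.03, and those with different numbers at -0.11 to 0.10. With 3 libraries per group this cannot decide whether the numbers pair the libraries, and the labels do not say. Slc30a3, Slc30a8, Slc30a10, Slc39a12 and Hamp had at most 13 reads in any library and were not tested.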

Other observations

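WT libraries differed among themselves more than KO libraries in several of these genes. WT replicate 1 was the lowest library for Mt1, Mt2 and Slc11a1, and the highest for Ireb2, Slc30a4 and Slc30a5. WT replicate 3 was the highest library for Ftl1, at 238 CPM, and for Atox1, at 52.4 CPM. Chi-square statistics per degree of freedom between pairs of libraries ran from 22.7 to 23.7 in KO and from 36.3 to 77.1 in WT.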
